A study of Mus musculus with 435 samples.

Results

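Sertoli cells are the supporting cells of the testis. They arise from the somatic cells of the genital ridge once Sry switches on Sox9, assemble into testis cords around the germ cells, and steer the rest of the gonad by secreted signals: Amh removes the female ducts, Dhh acts on the interstitial cells outside the cords, and inhibin subunits join the hormone axis to the pituitary. Later they take up follicle-stimulating hormone signals through Fshr and feed the germ cells.

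The Sertoli cells described here were 78 of 244 single cells captured at E12.5, E13.5 and E16.5 (embryonic days), and of 396 cells kept in the whole series. They were chosen by their own expression: a cell counted as a Sertoli cell if at least 3 of the 6 genes Amh, Dhh, Ptgds, Aard, Mro and Cst9 were at 5 RPKM or more (reads scaled by gene length and by sequencing depth). The other 166 cells of the same captures were the comparison. All cells came from XY mouse gonads of the NR5A1-eGFP genotype on a mixed background, were untreated as far as the labels say, and had been sorted live for green fluorescence, so the reporter limits which gonadal cells could be captured at all. Each late stage had 2 captures, which were the replicates; the series text calls them independent and gives no number of embryos, so p-values measure the spread between captures. Captured wells, 1 cell each by design, were read at a labelled 10 M reads at E12.5 and E16.5 and 25 M at E13.5, and the first E13.5 capture used a medium chip, the others small ones. For comparisons with E13.5, stage and sequencing run cannot be told apart.

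The rule found 5 of 30 and 7 of 37 cells in the E12.5 captures, 22 of 56 and 10 of 56 in the E13.5 captures, and 19 of 31 and 15 of 34 in the E16.5 captures. As shares these were 16.7% (Wilson 95% interval 7.34 to 33.6), 18.9% (9.48 to 34.2), 39.3% (27.6 to 52.4), 17.9% (10.0 to 29.8), 61.3% (43.8 to 76.3) and 44.1% (28.9 to 60.5), with a mean of 33% ± 18.2 (SD, n = 6 captures). The intervals cover counting error only. The 2 E13.5 captures differed from each other by more than either E12.5 capture differed from the second E13.5 capture. Both E16.5 shares were above the other 4, and their intervals overlap with that of the first E13.5 capture. The interval of the second E16.5 capture also overlaps with those of both E12.5 captures and of the second E13.5 capture. Before E12.5 the rule found 2 of 52 and 2 of 41 cells at E11.5 and 0 of 59 at E10.5, which allows a share of up to 5.08% at a limit of 3 cells (Wilson upper bound 6.11%). All 4 of the E11.5 cells had Amh at 0 and Cst12 at 0, with Sox9 from 117.3 to 729, Ptgds from 42.3 to 389 and Mro from 21.2 to 56.2 RPKM.

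**Figure D1:**
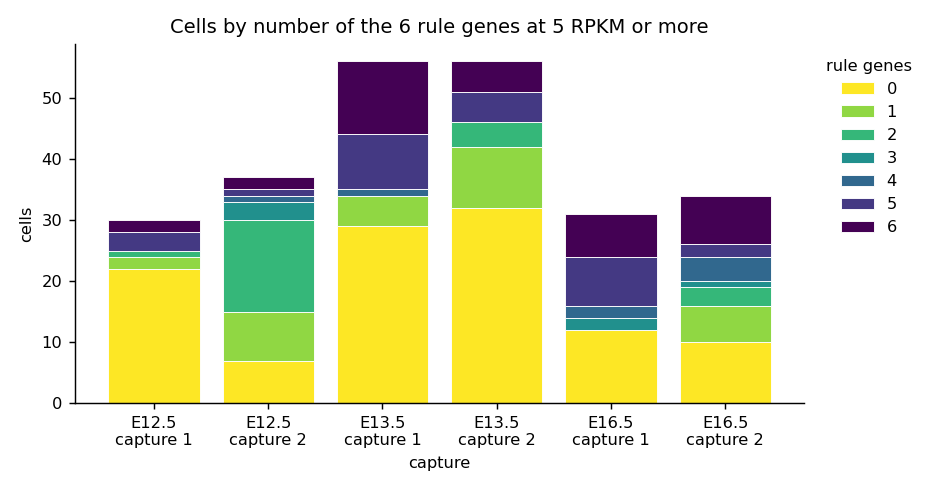
Cells of each capture (x axis) stacked by how many of the 6 rule genes they held at 5 RPKM or more (y axis, number of cells; colours, 0 to 6 genes). Cells with 0 or with 5 and 6 genes made up most captures, except the second E12.5 capture, where 15 of 37 cells held exactly 2.

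Most cells were far from the threshold. Of the 166 other cells 31 held 1 and 23 held 2 of the rule genes, and the rest held 0. Of the 78 Sertoli cells, 6 held 3, and 8, 28 and 36 held 4, 5 and 6. Among the 6 cells just inside, Ptgds reached 5 RPKM in 5 and Cst9 in 3. In the 23 cells just outside, Ptgds reached it in 6 and Cst9 in 17. Sox9, which was not in the rule, averaged 114.3 RPKM in the cells just inside and 30.8 just outside, reaching 5 RPKM in 5 of 6 and 17 of 23 cells. Of the cells just outside, 15 lay in the second E12.5 capture, which is therefore the least sharply divided of the 6.

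The 6 rule genes chose the cells, so their levels are a description and were not tested. Values of 6 captures are given throughout in the order first and second E12.5, first and second E13.5, first and second E16.5, each the mean over the Sertoli cells (or over the other cells) of that capture. Amh averaged 98.5, 18.6, 45.5, 20.02, 61.4 and 68.05 RPKM in Sertoli cells and reached 5 RPKM in 62 of 78 Sertoli cells and 6 of 166 others. Dhh, the hedgehog ligand, averaged 12.04, 33.9, 31.3, 33.5, 43.2 and 33.9 RPKM, lowest in the first E12.5 capture. Ptgds, which makes prostaglandin D2, averaged 174, 407, 761, 397, 593 and 882 RPKM and was the gene that most Sertoli cells held, at 5 RPKM in 76 of 78.

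Aard averaged 109.2, 101.5, 288, 188, 130.3 and 106.7 RPKM and Mro averaged 73.8, 70.3, 69.2, 86.9, 118.2 and 105.7 RPKM, and each reached 5 RPKM in 73 cells. Cst9, a cystatin, averaged 3084, 802, 4917, 4237, 144 and 3477 RPKM, the highest of the 6 genes in every capture but the first at E16.5. Its cells did not overlap between the E16.5 captures: they ranged from 0 to 469 RPKM in the first and from 639 to 11154 in the second. The cells of the E16.5 captures overlapped for each of the other 5 rule genes. Known Sertoli cell genes outside the rule were read as description. Genes that go along with the 6 rule genes had to differ, so these are no independent check of the label. Sox9 was at 1 RPKM or more in 78 of 78 Sertoli cells and 82 of 166 others, Clu in 76 and 72, and Defb19 in 77 and 53. Sry was listed at 0 in every Sertoli cell capture mean, and Foxl2, the defining factor of ovarian supporting cells, reached 1 RPKM in 0 cells.

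Markers of other cell types were also present in part of the Sertoli cells. In 25 of the 78, at least 3 of 6 markers of another cell type were at 5 RPKM or more, with 0, 4, 15, 2, 3 and 1 such cells in the 6 captures. The 15 in the first E13.5 capture, the one on the medium chip, were 15 of its 22 Sertoli cells. In 23 of the 25 the markers were interstitial (among them Pdgfra, Nr2f2, Tcf21 and Dcn). Summed over a list, the capture means of interstitial markers ranged from 13.9 to 324 RPKM in Sertoli cells and from 605 to 1812 in the others. Leydig cell markers ranged from 11.51 to 451 against 60.6 to 2475, and smooth muscle markers from 1.34 to 294 against 16.1 to 1986. The highest Sertoli cell sum of all 3 lists lay in the first E13.5 capture, where Acta2 averaged 225 RPKM in Sertoli cells.

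Most other lists had low sums in Sertoli cells. Germ cell markers summed to between 0.194 and 39.6 RPKM (others, 0 to 111.95), endothelial markers to between 0.0267 and 10.3 (others, 1.61 to 84.7), macrophage markers to between 0.0296 and 12.9 (others, 0.0716 to 8.43) and surface epithelium markers to between 5.42 and 41.8 (others, 3.87 to 171). Defining markers at 0 in every Sertoli cell were Cnn1 for smooth muscle, Tie1 for endothelium, Cx3cr1, Tyrobp, C1qb and Lyz2 for macrophages, and Msln and Lhx2 for the surface. Other members averaged 1 RPKM or more over the captures in Sertoli cells. These were Csf1r for macrophages, Dazl and Dppa3 for germ cells, Pecam1 and Kdr for endothelium, and Aldh1a2 and Gng13 for the surface. For smooth muscle they were Acta2, Tagln, Actg2 and Des. Of the erythroid list 2 of 6 genes were measured, and its sum of 0 to 37.1 RPKM in Sertoli cells (others, 0.112 to 2.71) was nearly all Alas2, at 0, 0, 13.98, 19.7, 37.1 and 13.1 RPKM. Of the mesonephric list 4 of 6 were measured, and its sum of 66.8 to 329 RPKM (others, 0.0512 to 38.1) was nearly all Spp1, while Pax2 and Pax8 were under 1 RPKM and Lhx1 was at 0 outside the second E12.5 capture, where it averaged 10.6. The part of other cell types' RNA in the results below was not tested, and calls that depended on the 25 mixed cells are named where they occur.

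More genes were detected in Sertoli cells than in the cells beside them. The median number of genes above 0 RPKM was 5626, 6275, 7096.5, 6927, 5587 and 5053 in Sertoli cells and 5189, 5513.5, 5764, 5524, 5562.5 and 4793 in the others. The difference was positive in all 6 captures and averaged 703 ± 569 genes (SD, n = 6; exact two-sided sign-flip permutation p = 0.031, the smallest that 6 captures allow). It was widest in the E13.5 captures, and 24.5 genes in the first E16.5 capture. A cell with more genes detected could pass the rule more easily, so the choice of cells may itself favour this difference. The p-value cannot separate the difference from that choice, and its share was not tested. The class comparison was therefore also run with other cells matched on detected genes, and that count is given beside the main one.

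**Figure D2:**
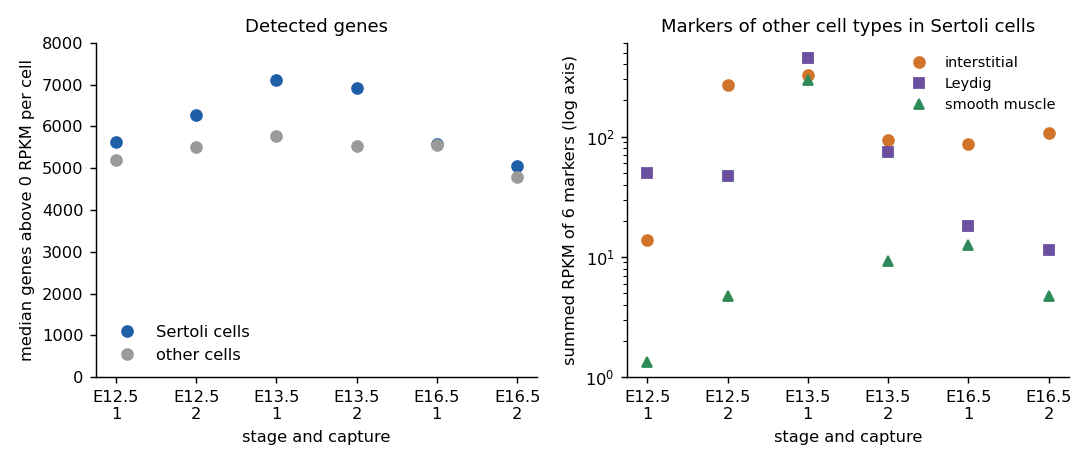
Left, the median number of genes above 0 RPKM per cell in Sertoli cells (blue) and other cells (grey) of each capture; right, the summed mean RPKM of 6 interstitial, 6 Leydig and 6 smooth muscle markers in Sertoli cells (log axis). Sertoli cells were above the others in all 6 captures, and the first E13.5 capture had the highest sum of each list, 324, 451 and 294 RPKM.

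Sertoli cells were compared with the other cells of their own captures, to ask which genes set them apart beyond the 6 that chose them. Of the 166 other cells, 139 held at least 3 of the 6 interstitial markers at 5 RPKM or more. The differences are therefore largely against cells with interstitial markers. Of the genes named by size of difference, Spp1, Rhox8, Gstm6 and Shbg led those higher in Sertoli cells, and Tubb6, Serping1, Mgp and Acta2 those lower. The fit used the log2 of each class mean plus 1 RPKM with the capture as a block, so a log2 difference understates the change of genes near 0. Of 12225 genes tested with limma, 830 (6.79%) passed at a Benjamini-Hochberg adjusted p under 0.05, of which 358 (2.93%) were higher and 472 (3.86%) lower in Sertoli cells. Because the cells were selected on 6 genes measured in the same cells, genes that go along with those 6 had to differ, and the counts describe the chosen cells. The median over all genes was -0.18 on the log2 scale, and -0.11 when captures and classes were scaled by median ratios. It was 0.093 with the mean of log2 values and -0.024 with other cells matched on detected genes.

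The count moved with the choice of comparison cells and with single captures. With other cells matched to the Sertoli cells on detected genes, an alternative chosen after seeing the data, 496 genes passed, 293 higher and 203 lower. Matching kept all 12 other cells of the first E16.5 capture and 15 of 19 in the second, so it could change little there. It also left fewer comparison cells, so this count cannot separate detected genes from cell number. The count was 534 without the first E13.5 capture, 384 without the second, 509 without the first and 492 without the second E16.5 capture. Without the 25 mixed Sertoli cells and the mixed others it was 950, with 311 higher and 639 lower. With the mean of log2 values in place of the log2 of means it was 1700, with 1162 higher and 538 lower. With median-ratio scaling it was 806, with 394 higher and 412 lower.

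The 12 genes named in each direction are those with the largest differences among genes that passed, went the same way in all captures, reached 5 RPKM and were not predicted models, which left 293 of the 358 higher and 376 of the 472 lower genes. Among them the largest difference was that of Spp1, osteopontin, a secreted phosphoprotein that binds integrins. Spp1 averaged 329, 179, 264, 66.8, 233 and 206 RPKM in Sertoli cells and 0.722, 38.02, 0.196, 2.01, 0.0512 and 0.0601 in the others, a log2 difference of 6.25 ± 0.69 (SE, n = 6 captures in each class; limma adjusted p 0.000284). The second E12.5 capture stood out, with 38.02 RPKM in the other cells and at most 2.01 in those of any other capture. Rhox8, an X-linked homeobox factor, averaged 29.03, 75.5, 146, 48.7, 231 and 265 RPKM in Sertoli cells and 0.0294 to 2.58 in the others (6.11 ± 0.60, limma adjusted p 0.000123). Shbg, the binding globulin of sex steroids, averaged 53.97, 83.2, 106.4, 97.8, 166 and 63.6 RPKM against 0.00517 to 11.1 (5.57 ± 0.56, limma adjusted p 0.000155).

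Gstm6, a mu-class glutathione transferase, an enzyme that couples glutathione to reactive compounds, averaged 57.3, 413, 664, 160.1, 657 and 474 RPKM in Sertoli cells and 0.0125, 25.3, 3.50, 0.543, 13.99 and 24.3 in the others, a log2 difference of 5.57 ± 0.42 (limma adjusted p 1.47e-05). Its neighbours were far more abundant. Gstm1 averaged 3389, 4006, 4201, 3706, 3131 and 3853 RPKM against 101.7 to 495 (log2 difference 4.37) and Gstm2 1993, 2263, 3228, 2249, 2346 and 1970.4 RPKM against 60.3 to 213 (4.5), and both were at 5 RPKM or more in all 78 Sertoli cells. With Gstm7 (4.19) they lie near one another on chr3:107926334-108017973 (GRCm38), with gaps of at most 100 kb. Genes between them that were not called higher were not placed, so an unbroken run is not shown. Gstm1, Gstm2 and Gstm7 were named after their values were seen, as neighbours of Gstm6. The 4 genes are close paralogs and the counting tool is not given in the sources used here, so how reads were divided among them is uncertain.

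Serpina3a, a serpin, averaged 43.8, 169, 354, 411, 384 and 524 RPKM in Sertoli cells and 0.00562 to 40.8 in the others (5.10 ± 0.38, limma adjusted p 1.47e-05). Defb19, a beta-defensin, averaged 322, 873, 3501, 867, 2808 and 2781 RPKM against 4.97 to 114.8 (5.08 ± 0.36, limma adjusted p 1.44e-05). Cst12, a cystatin, averaged 25.8, 12.2, 52.4, 17.8, 443 and 571 RPKM against 0 to 11.3 (4.93 ± 0.46, limma adjusted p 8.1e-05), and its E16.5 values were the highest by far. Cst12, Cst8 and the rule gene Cst9 lie near Cst11 and Cst3, which were also higher, on chr2:148768609-148875692. Only rule genes and genes called higher were placed, so other genes of this stretch were not looked at. Cst8 averaged 93.1, 270.2, 144, 117.998, 62.2 and 18.5 RPKM against 0.0708 to 18.7 (log2 difference 4.01).

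Of the other genes among the 12, Mt3, a metallothionein that binds zinc and copper, averaged 78.3, 66.4, 92.2, 58.6, 82.4 and 71.8 RPKM in Sertoli cells, with the smallest ratio of highest to lowest capture of the 12, and 1.14, 12.02, 0.00547, 0.368, 1.59 and 0.165 in the others (5.09 ± 0.54, limma adjusted p 0.000205). Gatm, the first enzyme of creatine synthesis, averaged 402, 225, 298, 520.3, 459.7 and 329 RPKM against 0.234 to 37.9 (4.85 ± 0.62, limma adjusted p 0.000754). Fabp3, a fatty acid binding protein, averaged 114.2, 27.8, 158, 80.5, 86.7 and 99.7 RPKM against 0.0299 to 11.9 (4.79 ± 0.50, limma adjusted p 0.000179). Tmem184a, a membrane protein, had 47.9 to 235 RPKM against 1.36 to 11.04 (log2 difference 4.88). Kazald1, a secreted protein with a Kazal domain, had 27.5 to 288 RPKM against 0.00623 to 62.3 (log2 difference 4.73), with 62.3 RPKM in the other cells of the first E16.5 capture and at most 5.11 in those of the rest.

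**Figure D3:**
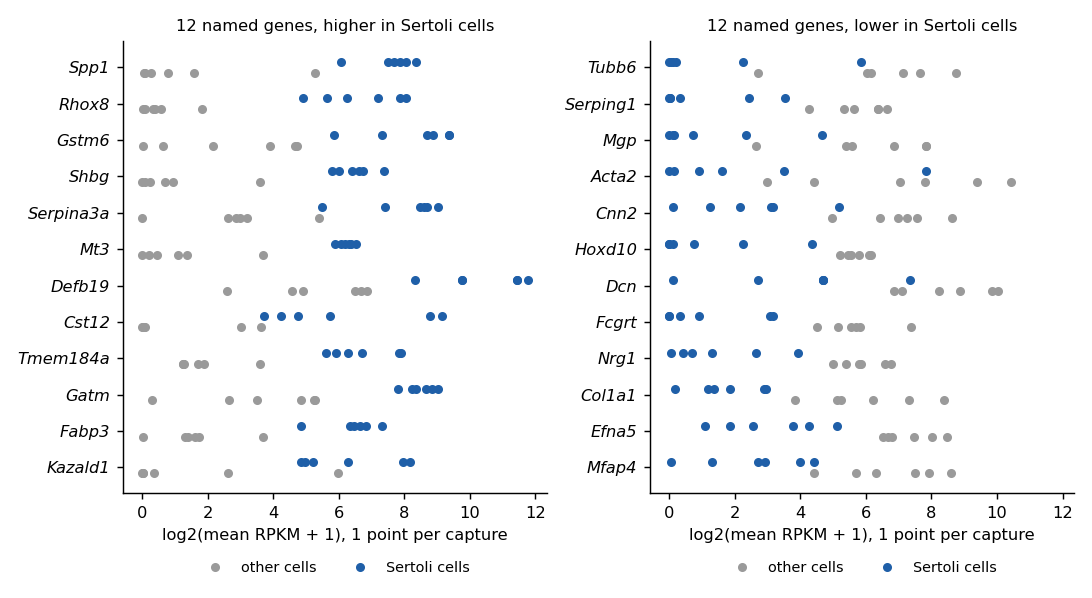
Log2 of mean RPKM + 1 (x axis) of the 12 genes named in each direction (y axis) in Sertoli cells (blue) and other cells (grey), 1 point per capture. The other cells of the second E12.5 capture gave the highest grey points for Spp1 and Shbg (38.02 and 11.1 RPKM), and Acta2 in the Sertoli cells of the first E13.5 capture reached 225 RPKM.

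Of the 12 genes named as lower, Dcn, decorin, a matrix protein, averaged 0.0693, 24.7, 163, 5.59, 24.9 and 24.6 RPKM in Sertoli cells and 136, 114.1, 469, 299, 1045 and 916 in the others (-4.45 ± 0.59, limma adjusted p 0.000961). Col1a1, a fibrillar collagen, averaged 0.127, 2.62, 6.45, 1.56, 6.81 and 1.26 RPKM against 33.7, 13.4, 36.4, 73.4, 335 and 157 (-4.28 ± 0.58, limma adjusted p 0.00104). Acta2, smooth muscle actin, averaged 0, 0.104, 225, 0.892, 10.2 and 2.06 RPKM against 6.92, 20.4, 670.4, 129.9, 1378 and 224 (-4.68 ± 0.63, limma adjusted p 0.000992). In Sertoli cells the first E13.5 capture, with its 15 mixed cells, held the highest value of Dcn and Acta2.

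Mgp, matrix Gla protein (-4.69), and Mfap4, a microfibril protein (-4.18), were lower too. Cnn2, a calponin, had 0.0817 to 35.2 RPKM in Sertoli cells and 30.5 to 398 in the others (log2 difference -4.48). Tubb6, a beta tubulin, had 0 to 56.5 against 5.57 to 424 RPKM (-4.99) and Serping1, the C1 inhibitor, 0 to 10.7 against 18.1 to 99.9 (-4.71). The signalling ligands Nrg1, neuregulin 1 (-4.39), and Efna5, an ephrin (-4.21), were lower as well, as were the homeobox gene Hoxd10 (-4.46) and Fcgrt, the neonatal Fc receptor (-4.44).

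Of the 24 named genes, each stayed past the threshold in each of the 6 fits that left out 1 capture. They had been picked as large differences that went the same way in all 6 captures, which favours this outcome. Tubb6 and Mgp were lost with 2 rule genes required, and Tubb6, Dcn and Mfap4 with no filter on low genes.

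Gene lists were then read against this background of 2.93% higher and 3.86% lower genes. In the list of Sertoli hormones and secreted proteins, 14 of 21 tested members were higher and 2 lower, with a median log2 difference of 3.28 (all genes, -0.18). This list holds genes picked because Sertoli cells are known to make them. Among the 14 is Rhox8, which is a homeobox factor and not a hormone or secreted protein. All the lists were chosen with earlier results of these data known, so their counts are a description. Clu, clusterin, averaged 618, 329, 2179, 1092, 2550.0 and 2559.5 RPKM against 38.4, 45.4, 35.2, 70.5, 29.5 and 90.5 (4.64 ± 0.37, limma adjusted p 2.23e-05). Inhbb, the activin and inhibin beta B subunit, averaged 48.5, 17.8, 34.3, 26.2, 50.9 and 62.2 RPKM against 0.00926 to 2.81 (4.34 ± 0.54, limma adjusted p 0.000675). Inha, the inhibin alpha subunit, averaged 133, 121, 141, 187, 881 and 994 RPKM against 24.9, 31.1, 21.2, 40.4, 119.1 and 123 (2.50 ± 0.20, limma adjusted p 2.31e-05).

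The growth factors Kitl, stem cell factor for germ cells (2.31), and Pdgfa, a platelet growth factor (2.24), were also higher, as were Serpine2 (3.95), Vnn1 (3.57), Spint2 (3.28), Defb36 (3.99) and Serpina5, with limma adjusted p of at most 0.0344. The 2 lower members were Inhba, the activin A subunit, at 0 to 13.2 RPKM in Sertoli cells and 6.51 to 95.5 in the others (log2 difference -3.16), and Sostdc1, a BMP and Wnt antagonist (-2.42). Inhba and Inhbb thus differed in opposite directions. Gdnf, the growth factor of spermatogonial stem cells, had 6.15 to 17.6 RPKM against 0.266 to 11.7 and did not pass (limma adjusted p 0.109). Members outside the leading few of a list, in this and the following lists, were named after their values were seen. Losses of calls in the lists are given mainly for fits without 1 capture. Counts over all 22 alternatives are given at the end.

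Of 15 testis-determining transcription factors, 2 were higher and 1 lower, with a median of 0.69. Sox9, which sets Sertoli cell fate, averaged 271, 234, 135, 189, 165 and 125.4 RPKM in Sertoli cells and 5.33, 40.5, 13.3, 13.8, 6.93 and 11.3 in the others (3.77 ± 0.35, limma adjusted p 8.7e-05). The other cells of the second E12.5 capture were again the closest. Dmrt1, which maintains male fate, averaged 8.78, 8.44, 15.9, 4.98, 10.4 and 17.1 RPKM against 0 to 1.43 (3.20 ± 0.52, limma adjusted p 0.00311). Lhx9, a factor of the early gonad, averaged 1.46, 7.30, 7.33, 2.11, 2.33 and 3.55 RPKM against 16.98, 54.9, 36.2, 38.3, 19.5 and 31.1 (-2.81 ± 0.41, limma adjusted p 0.00173).

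Nr5a1, the gene behind the reporter, averaged 119.6, 40.4, 32.5, 65.1, 63.96 and 57.2 RPKM against 15.96, 24.3, 21.5, 19.8, 48.3 and 30.8 and did not pass (1.18 ± 0.35, limma adjusted p 0.0686). The reporter transcript itself, eGFP, averaged 5195, 2178, 1583, 3097, 3509 and 2239 RPKM against 902, 1104, 991, 935, 1760.4 and 1149 and was higher in Sertoli cells (1.31 ± 0.19, limma adjusted p 0.00177). The sort gate was set on its protein. Gata4 (0.56, limma adjusted p 0.168) and Wt1 (0.60, 0.17), which are active in several gonadal cell types, did not pass.

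Epithelial junction and polarity genes had 5 of 19 members higher and 0 lower, with a median of 1.48. Cldn11, the claudin of the later blood-testis barrier, averaged 11.3, 18.3, 31.2, 21.9, 22.5 and 10.2 RPKM against 0.0154 to 4.28 (3.33 ± 0.57, limma adjusted p 0.00441). Cgn, cingulin of tight junctions, averaged 20.01, 32.999, 50.1, 58.8, 65.9 and 66.5 RPKM against 9.89, 17.8, 3.76, 8.04, 0.145 and 0.0149 (3.31 ± 0.70, limma adjusted p 0.015). Gja1, connexin 43, averaged 334, 332, 142, 364, 699 and 670.1 RPKM against 56.99 to 111.5 (log2 difference 2.26) and was at 5 RPKM in all 78 Sertoli cells.

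The epithelial keratin Krt8 (2.79) and the desmosomal protein Dsp (2.69) passed in the full comparison. Krt8 was lost in 5 and Dsp in 3 of the 6 fits without 1 capture. Cdh1, E-cadherin, reached 1 RPKM in 1 Sertoli cell, and Epcam in 11.

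Basement membrane genes were split, with 5 of 17 higher, 4 lower and a median of -0.64. Col9a3, a collagen IX chain, averaged 37.1, 19.6, 26.1, 69.3, 18.8 and 14.99 RPKM against 0.0481 to 3.13 (3.85 ± 0.56, limma adjusted p 0.00173), and Itga6, a laminin receptor subunit, 37.1, 15.95, 66.4, 70.3, 59.5 and 85.996 against 0.425 to 11.9 (3.22 ± 0.48, limma adjusted p 0.00196). Col18a1 (2.40), Dag1 (1.37) and Sparc (0.92) were higher too. Lower were Fn1, fibronectin, at 0.0172 to 13.47 RPKM against 12.47 to 52.9 (log2 difference -3.53), the type IV collagens Col4a1 (-1.33) and Col4a2 (-1.44), and Nid2 (-2.76). Nid2 was lost in 5 of the 6 fits without 1 capture.

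**Figure D4:**
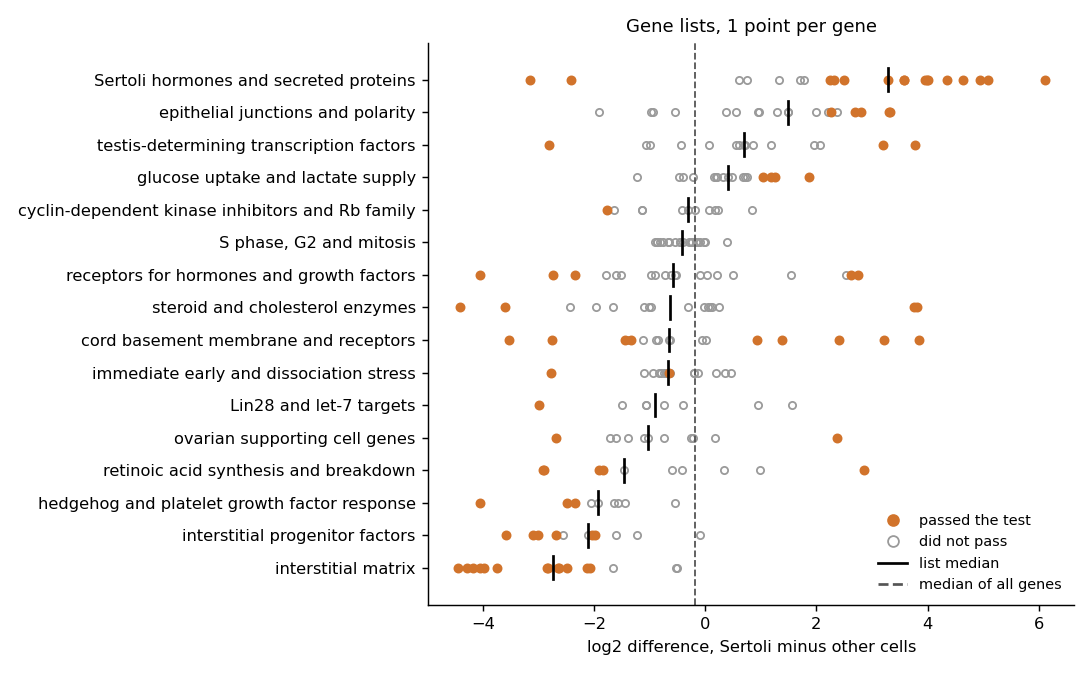
Log2 difference of Sertoli cells minus other cells (x axis) for each tested member of 16 gene lists (y axis), filled where it passed the limma test; black bars are list medians and the dashed line is the median of all genes, -0.18. The list of Sertoli hormones and secreted proteins, which also holds Rhox8, has its median at 3.28 and that of interstitial matrix at -2.73.

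Of 17 genes of glucose uptake and lactate supply, 4 were higher and 0 lower, with a median of 0.40. Ldhb, a lactate dehydrogenase subunit, averaged 1144, 2237, 996, 1785, 520.1 and 593 RPKM against 317, 504, 415, 294, 194 and 159 (1.86 ± 0.16, limma adjusted p 4.79e-05). Aldoa (1.05), Eno1 (1.18) and Hk2 (1.26) of glycolysis passed as well, although Eno1 was lost without the second E13.5 capture and Hk2 in 5 of the 6 fits without 1 capture. Ldha did not pass (0.21, limma adjusted p 0.592), and Slc16a3, a lactate exporter, was at 0 to 0.770 RPKM in Sertoli cells. In the retinoic acid list, 1 of 11 was higher and 4 lower, with a median of -1.47.

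The member that was higher, Aldh1a1, makes retinoic acid and averaged 493, 775, 1152, 965, 731 and 896 RPKM against 89.98, 194, 140.2, 164, 53.9 and 87.3 (2.85 ± 0.21, limma adjusted p 1.46e-05). All 78 Sertoli cells held it at 1 RPKM or more, as did 75 of 166 others. Among the 4 that were lower were the binding protein Crabp2 (-2.92) and the dehydrogenases Dhrs3 (-2.90) and Rdh10 (-1.91). Dhrs3 was lost without the second E13.5 capture, Crabp2 in 4 and Rdh10 in all 6 of the fits without 1 capture. Cyp26b1, which breaks retinoic acid down and keeps it from fetal germ cells, averaged 25.9, 15.6, 17.0003, 5.31, 3.62 and 3.08 RPKM against 5.13, 12.49, 7.56, 8.33, 4.15 and 5.72 and did not pass (limma adjusted p 0.755).

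Steroid and cholesterol enzymes had 2 of 16 members higher and 2 lower, with a median of -0.64. The 2 higher ones act late in the androgen and estrogen steps. Hsd17b3, which turns androstenedione into testosterone, averaged 3.33, 2.93, 37.5, 49.6, 148 and 159 RPKM in Sertoli cells and 0.0518, 4.85, 0.00300, 0.0279, 7.47 and 0.977 in the others (3.8 ± 0.81, limma adjusted p 0.0152). It was at 1 RPKM or more in 67 of 78 Sertoli cells and 7 of 166 others. Hsd17b1, which favours estradiol, averaged 35.1, 0.196, 15.4, 4.12, 326 and 225 RPKM against 0.00861, 0.0462, 0, 0.412, 25.99 and 0.0721 (3.76 ± 0.81, limma adjusted p 0.0169). Its call was lost without the first E12.5 capture, and that of Hsd17b3 without the second E13.5 or the second E16.5 capture.

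The 2 lower ones are the Leydig cell enzymes of the first steps. Cyp17a1 averaged 0, 2.79, 50.1, 2.80, 1.10 and 0.205 RPKM in Sertoli cells and 21.4, 1.72, 122, 39.3, 1118 and 490.2 in the others (-4.40 ± 1.07, limma adjusted p 0.0294), and Cyp11a1 averaged 0, 2.92, 98.4, 2.46, 0.482 and 2.27 against 6.01, 3.78, 124, 37.7, 319 and 392 (-3.60 ± 0.91, limma adjusted p 0.0344). Each was lost in 4 of the 6 fits without 1 capture, and against interstitial cells alone Cyp11a1 had a log2 difference of 0.40. In Sertoli cells both were highest in the first E13.5 capture, where Leydig markers summed to 451 RPKM.

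Receptors had 2 of 20 members higher, 3 lower and a median of -0.58. Amhr2, the receptor of Amh, averaged 98.3, 50.05, 90.4, 96.2, 155 and 101.8 RPKM against 42.4, 26.3, 7.40, 19.3, 5.21 and 9.58 (2.62 ± 0.46, limma adjusted p 0.00467). Gpr37 averaged 120.1, 59.3, 40.96, 29.3, 70.2 and 26.1 RPKM against 0.0110 to 12.48 (2.75 ± 0.57, limma adjusted p 0.0137). Pdgfrb (-4.05), Pdgfra (-2.33) and Fgfr1 (-2.74), receptors of mesenchymal growth factors, were lower, Fgfr1 not without the first E16.5 capture. Of 9 hedgehog and platelet growth factor response genes, 0 were higher and 3 lower, with a median of -1.92: the 2 Pdgf receptors and Gli2 (-2.49), which was lost without the second E13.5 capture.

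Interstitial lists were low in Sertoli cells, against other cells of which most held interstitial markers. Of 16 interstitial matrix genes 13 were lower and 0 higher (median -2.73), and of 11 interstitial progenitor factors 6 were lower and 0 higher (median -2.10). Nr2f2, a nuclear receptor of interstitial progenitors, averaged 9.64, 64.2, 68.3, 43.6, 24.7 and 15.5 RPKM against 189, 167, 195, 231, 183 and 228 (-2.67 ± 0.36, limma adjusted p 0.001), and Tcf21 averaged 0.0925, 109.8, 68.5, 28.1, 24.4 and 35.8 against 207, 277, 228, 239, 457 and 451 (-3.57 ± 0.61, limma adjusted p 0.00444). Meis2 (-3.00) and the collagen Col1a2 (-4.06) were lower as well. Tcf21 in Sertoli cells ranged from 0.0925 RPKM in the first to 109.8 in the second E12.5 capture. The ovarian supporting list had 1 of 11 higher, the Wnt receptor partner Lgr5 at 27.5, 8.02, 2.22, 7.61, 6.90 and 0.330 RPKM against 0 to 1.252 (2.37), which was lost in 4 of the 6 fits without 1 capture. Its 1 lower member was Nr2f2, and the median was -1.03.

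Proliferation genes were not called. Of 20 genes of S phase, G2 and mitosis, 0 passed, with a median of -0.42; Cenpe, a mitotic motor, had 17.97, 22.6, 22.2, 5.71, 19.3 and 17.9 RPKM against 12.8, 51.5, 31.5, 23.5, 33.9 and 57.6 (-0.91 ± 0.38, limma adjusted p 0.183). Mcm3, a subunit of the replication helicase, had -0.86 ± 0.54 (limma adjusted p 0.379). Of 11 cyclin-dependent kinase inhibitors and Rb family genes 0 were higher and 1 lower (median -0.31). This was Cdkn1c, p57, at 47.6, 77.4, 92.4, 59.4, 5.07 and 5.19 RPKM against 139, 108.2, 126, 270.0, 56.3 and 40.2 (-1.76 ± 0.38, limma adjusted p 0.0155), lost without the second E13.5 capture. Of 8 Lin28 and let-7 target genes 0 were higher and 1 lower (median -0.90), the fetal growth factor Igf2 (-3.00).

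Of 16 immediate early and dissociation stress genes, which respond to handling of tissue, 2 were lower and 0 higher (median -0.67). Zfp36, a factor that destabilises messenger RNA, averaged 0.0806, 48.9, 15.7, 10.4, 26.03 and 16.7 RPKM against 39.5, 33.7, 105.8, 84.6, 236 and 164 (-2.78 ± 0.55, limma adjusted p 0.0109). Egr1 averaged 369, 182, 466, 429, 508 and 863 RPKM against 403, 344, 856, 856, 742 and 1194 (-0.65 ± 0.13, limma adjusted p 0.0125). Its call was lost in 9 of 22 alternatives. Among them were the fits without either E13.5 capture and, at a limma adjusted p of 0.0501, the fit without the mixed cells.

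Sertoli cells were next followed across stages, 1 mean per capture. Between E12.5 and E16.5, 2 secreted inhibitors, an inhibin subunit, 2 proteases and a steroid enzyme were called higher. The chromatin protein Hmga2 was called lower. These calls depended on single captures and settings, as given below. Of 10624 genes tested, 7 (0.0659%) passed, 6 higher (0.0565%) and 1 lower (0.00941%) at E16.5, and 1120 had an unadjusted p under 0.05. The E12.5 means rest on 5 and 7 cells and the E16.5 means on 19 and 15. The median of all genes was 0.23 on the log2 scale, 0.08 after median-ratio scaling and -0.099 with the mean of log2 values. Both stages had the same labelled read number.

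Inha, which with a beta subunit makes inhibin, averaged 133, 121, 141, 187, 881 and 994 RPKM in Sertoli cells. Both E16.5 captures lay far above the other 4, and the rise from E12.5 was 2.87 ± 0.38 as a log2 difference (SE, n = 2 captures per stage; limma adjusted p 0.0324). Cst12 averaged 25.8, 12.2, 52.4, 17.8, 443 and 571 RPKM and rose by 4.74 ± 0.63 (limma adjusted p 0.0324). Hsd17b3 averaged 3.33, 2.93, 37.5, 49.6, 148 and 159 RPKM and rose by 5.22 ± 0.60 from E12.5 to E16.5 (limma adjusted p 0.0289).

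Serpina5, a serpin known as the protein C inhibitor, was listed at 0 in both E12.5 captures and averaged 11.4, 55.4, 119.4 and 159 RPKM in the E13.5 and E16.5 captures (limma adjusted p 0.0324). It was at 1 RPKM or more in 0, 0, 2, 2, 11 and 8 Sertoli cells of the 6 captures, and no fold is given against values listed at 0. Ctsl, the lysosomal protease cathepsin L, averaged 149.7, 231, 1084, 402, 2152 and 2296 RPKM and rose by 3.57 ± 0.47 (limma adjusted p 0.0324). Its E13.5 captures differed from each other by more than the E12.5 captures did. Mmp11, a matrix metalloprotease, averaged 6.32, 0.691, 51.2, 55.3, 142 and 137 RPKM and rose by 5.32 ± 0.76 (limma adjusted p 0.0474).

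Hmga2, a fetal chromatin protein repressed by let-7, averaged 129, 208, 40.4, 166, 0.0815 and 0.983 RPKM in Sertoli cells. It was under 1 RPKM in both E16.5 captures and above 40 in every earlier one, and fell by 6.81 on the log2 scale (SE 0.80; limma adjusted p 0.0289).

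**Figure D5:**
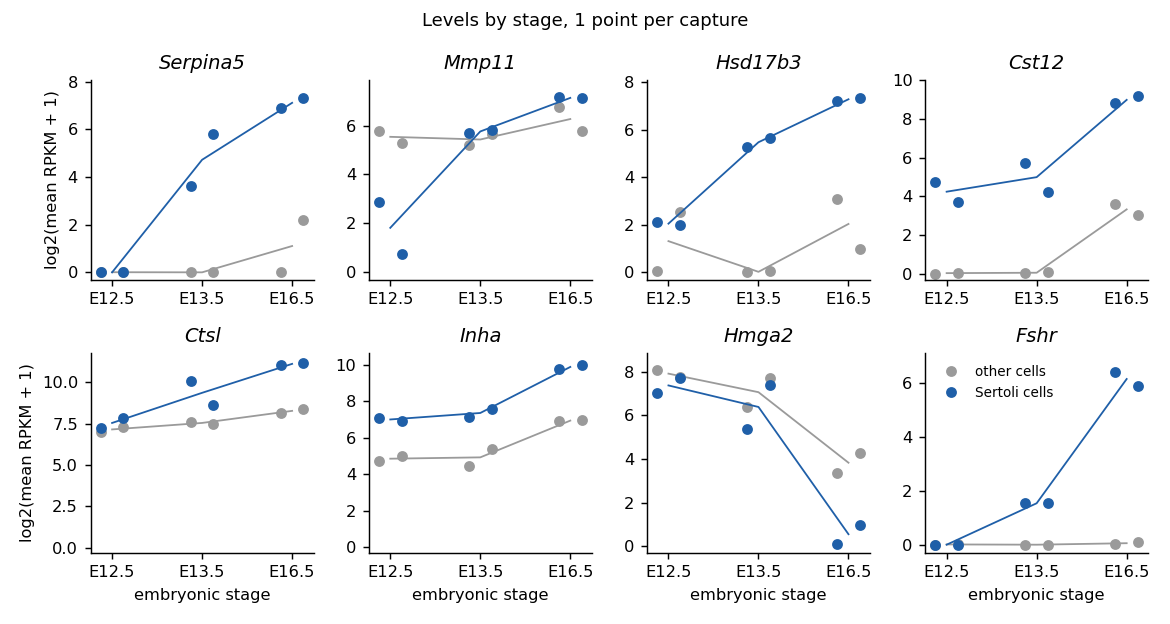
Log2 of mean RPKM + 1 (y axis) by stage (x axis) in Sertoli cells (blue) and other cells (grey) for the 7 genes that passed between E12.5 and E16.5 and for Fshr; points are captures and lines join stage means. In Sertoli cells Fshr and Serpina5 are at 0 in both E12.5 captures, and Hmga2 is under 1 RPKM in both E16.5 captures.

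These 7 calls rest on 2 captures a stage. Every one kept its direction in all alternatives, but none passed without either E16.5 capture (adjusted p of up to 0.604 for Serpina5, Cst12, Ctsl, Mmp11 and Hsd17b3 and 0.76 for Inha) or without the first E13.5 capture, 1 (Ctsl) passed without the second E13.5 capture, and none of the 7 passed with the mixed cells left out, with the 10 M read captures alone, with no filter on low genes or with no trend and robust terms in limma. The other cells of the same captures changed alongside for some: Inha averaged 24.9, 31.1, 21.2, 40.4, 119.1 and 123 RPKM there, Hmga2 264, 215, 83.3, 209, 9.26 and 18.6 and Ctsl 127, 158, 193, 180.1, 286 and 335. Serpina5 was at 0 to 3.55 RPKM in the others and Mmp11, at 54.001, 38.4, 36.01, 49.3, 107.9 and 53.6, had been higher there than in Sertoli cells at E12.5.

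Whether the change from E12.5 to E16.5 differed between Sertoli and other cells was tested on the difference of the 2 classes within each capture. Of 12225 genes limma called 0, with 1280 at an unadjusted p under 0.05 and a lowest adjusted p of 0.269. The estimate was 4.5 ± 1.36 for Hsd17b3 (limma adjusted p 0.376), 4.59 ± 1.0 for Mmp11 (0.337) and -2.73 ± 1.0 for Hmga2 (0.421). For Inha it was 0.79 ± 0.96 (0.819), for Ctsl 2.45 ± 0.97 (0.451) and for Cst12 1.45 ± 1.21 (0.721); Serpina5 had a limma adjusted p of 0.328. None of the 7 changes was therefore shown to be particular to Sertoli cells.

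Among the largest estimates at an unadjusted p under 0.05 were Tmem41a (7.55), Zfp513 (6.92) and Sdsl (6.73) on the side of Sertoli cells, with Nfil3 and Cdk20, which were listed at 0 in the E12.5 Sertoli cells, and Rhod (-7.27), Afap1l2 (-7.25), Cyp17a1 (-6.86) and Fhl2 (-6.86) on the other.

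Other members of the lists did not pass, and their values are given as description. Fshr, the receptor of follicle-stimulating hormone, was listed at 0 in both E12.5 captures and averaged 1.91, 1.89, 82.7 and 58.7 RPKM in the E13.5 and E16.5 captures. It was at 1 RPKM or more in 0, 0, 2, 1, 11 and 6 Sertoli cells and in 0 of the 166 others, and did not pass (limma adjusted p 0.0663), but it passed in 4 of 19 alternatives: at a pseudocount of 5, with the mean of log2 values and without either E12.5 capture. In the other 15 it did not, with a limma adjusted p of up to 0.604 without the second E16.5 capture. Jam2, a junctional adhesion molecule, averaged 0, 0.499, 8.28, 32.5, 41.1 and 81.7 RPKM (limma adjusted p 0.0939; past the threshold in 2 of 19 alternatives), and Ocln, occludin, 0, 0, 0.00527, 0, 5.96 and 34.7 (limma adjusted p 0.237). Rara, a retinoic acid receptor, averaged 0.248, 2.34, 3.64, 5.998, 18.4 and 13.9 RPKM (limma adjusted p 0.326) and Stra6, a retinol transporter, 1.09, 0.639, 1.76, 4.48, 19.6 and 7.28 (limma adjusted p 0.377).

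Fgf9 and Nr0b1 ran the other way by value without passing, and Sox8 did not. Fgf9, the growth factor that maintains Sox9 in the early testis, averaged 27.4, 26.6, 2.76, 15.6, 0.0496 and 0.00484 RPKM (limma adjusted p 0.218), and Nr0b1, the nuclear receptor Dax1, 31.6, 7.45, 8.56, 5.1998, 0.385 and 0.272 (limma adjusted p 0.273). Sox8 averaged 0, 2.31, 7.53, 4.08, 9.21 and 24.3 RPKM (limma adjusted p 0.354). Sox9 itself had -0.81 between E12.5 and E16.5 (limma adjusted p 0.553), and Cdkn1c, at 47.6, 77.4, 92.4, 59.4, 5.07 and 5.19 RPKM, had -3.33 (limma adjusted p 0.144). Ccnd2, cyclin D2, averaged 23.2, 47.99, 31.6, 54.98, 263 and 174 RPKM (2.64, limma adjusted p 0.218).

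By list, the secreted proteins had 3 of 21 members higher and 0 lower at E16.5 (median 1.02; all genes, 0.23), the steroid list 1 of 16 higher (0.81) and the Lin28 and let-7 list 1 of 7 lower (-1.81). The other 13 lists had 0 members past the threshold. Their medians ran from -0.88 for ovarian supporting genes to 1.37 for immediate early genes. Of that last list Junb had 3.04 (limma adjusted p 0.374), and Dusp1 had 2.88 (0.538), which turned to -0.0114 without the first E12.5 capture. The medians were 0.17 for S phase, G2 and mitosis and 1.05 for cyclin-dependent kinase inhibitors and the Rb family.

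Single members of the remaining lists, none past the threshold, had these estimates at E16.5 against E12.5. Lamc1, a laminin chain, had -2.41 and Col18a1 -2.30. Slc16a1, a lactate carrier, had -2.78 and Ldhb -1.52. Cyp26b1 had -2.29, Hhip -2.03, Gli1 1.61, Mcm3 2.55 and Mcm6 1.71. Lgr5 had -2.31, Rspo1 -1.69, Dcn 2.30, Col6a1 1.66, Hes1 -2.86 and Tcf21 1.47. Tcf21 turned to -1.86 without the first E12.5 capture, and Lamc1 to 0.42 when 4 rule genes were required.

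Neighbouring stages gave no calls. Between E12.5 and E13.5 limma called 0 of 10624 genes (lowest adjusted p 0.47), with 703 (6.62%) at an unadjusted p under 0.05. Higher at E13.5 by value were Asns, which makes asparagine (0.0528, 4.04, 91.3, 87.5, 77.6 and 59.6 RPKM in the 6 captures, 5.29 on the log2 scale), and Nfil3, a transcription factor listed at 0 in both E12.5 captures. Ier3 (5.15), Star (5.15) and Adh1 (5.05) followed. Star, the cholesterol carrier of steroid cells, averaged 0, 0.433, 58.1, 29.4, 8.70 and 8.12 RPKM, and its highest Sertoli cell value lay in the first E13.5 capture.

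Lower by value at E13.5 were Pnliprp2, a lipase (96.7, 20.2, 0.00782, 8.26, 0 and 0 RPKM, -3.90), Rnf135 (-3.81), Sox6 (-3.71), Trmt12 (-3.69) and Gstt1 (-3.63). Between E13.5 and E16.5 limma again called 0 (lowest adjusted p 0.233), with 495 (4.66%) at an unadjusted p under 0.05. Higher by value at E16.5 were Hsd17b1, at 35.1, 0.196, 15.4, 4.12, 326 and 225 RPKM (4.89), Fshr (4.61), Alpl, alkaline phosphatase (4.90), Tex19.2 (4.48) and Cd177 (4.48). Lower were Hmga2 (-5.83), Hsd3b1 (-4.62), Slc35d2 (-4.18), Ifitm1 (-4.14) and Cpa1, which was listed at 0 in both E16.5 captures.

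Promoters were read for the 6 rule genes and the genes that led the class and stage comparisons on the higher side, to show the sequence in front of genes that moved together. RefSeq (GRCm38.p6) held promoters for 18 of these 23 genes, and since a gene can have several starts these came to 23 promoters. In the 250 bases before each start, 3 short motifs were searched on both strands: AACAAT, bound by SOX factors such as Sox9, AAGGTCA, bound by Nr5a1, and AGATAA, bound by GATA factors such as Gata4. Of these promoters 3 held a match, those of Shbg, Serpina5 and Ctsl. Of all 32851 promoters 21.2% held at least 1 of the motifs, and of the promoters of genes tested 12.9%. Those of Shbg and Serpina5, which overlap no exon of GENCODE M21, are printed 5′ to 3′ on the strand of the gene, ending at the base before the RefSeq start, with the matched bases in capitals. Shbg lies at chr11:69617906-69618155 (minus strand, a GATA match) and Serpina5 at chr12:104100863-104101112 (plus strand, a SOX match). The Ctsl window, at chr13:64370521-64370770 (minus strand), has a SOX match on the opposite strand.
Shbg: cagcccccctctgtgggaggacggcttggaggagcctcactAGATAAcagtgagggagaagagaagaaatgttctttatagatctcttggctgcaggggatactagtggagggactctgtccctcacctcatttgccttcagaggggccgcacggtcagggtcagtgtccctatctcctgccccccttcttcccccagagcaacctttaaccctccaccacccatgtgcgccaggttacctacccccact
Serpina5: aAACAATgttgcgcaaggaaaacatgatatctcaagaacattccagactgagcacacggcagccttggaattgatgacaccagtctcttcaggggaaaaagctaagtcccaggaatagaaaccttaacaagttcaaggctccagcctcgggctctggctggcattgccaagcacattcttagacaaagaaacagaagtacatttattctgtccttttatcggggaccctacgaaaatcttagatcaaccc
The SOX match in Serpina5 lies at the far end of the window from the start of the gene, and the GATA match in Shbg lies in the outer part of its window. Over the comparison of Sertoli with other cells, the SOX motif was in 4.72% of promoters of genes higher in Sertoli cells and 5.41% of those of all genes tested. The Nr5a1 motif was in 3.83% and 2.80%, and the GATA motif in 7.96% and 5.79%. These are descriptions of letters, with no test.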

How the data were processed

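Per the labels' protocols, live green cells (Draq7 staining marked dead ones) were captured singly in Fluidigm C1 chips, and SMARTer cDNA was made into Nextera XT libraries, read as 100 bp pairs. The authors deposited RPKM for each of 400 cells, of 435 labelled, over 16459 genes; the unit was read from the values. Builds named in the submitters' processing notes are GRCm38.p3 and mm10. Which aligner, counting tool and annotation were used is not given in the sources. Of all late values 65.6% were 0. Read depth per cell is known only as the labelled 10 M or 25 M.

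Cells under 3000 detected genes were dropped (3, at E16.5), and 2 wells of the second E12.5 capture with a correlation of 0.998 (next pair, 0.701) were averaged as 1 cell. RPKM were averaged per class and capture, and the log2 of these means plus 1 entered limma 3.58.1 (R 4.3.3; trend and robust empirical Bayes) on genes of at least 1 RPKM in at least 2 columns, without the 6 rule genes, with Benjamini-Hochberg adjustment at 0.05. The class fit had the capture as a block (5 residual degrees of freedom), and the stage and difference fits a factor of 3 stages (3 degrees). The scripts were tested on simulated data. No count test was run, since the values are not counts.

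Members, gene lists and markers were chosen with earlier results of these data known. Genes were named if they passed, had the same direction in all captures (or stages that did not overlap), reached 5 RPKM, were not predicted models and were among the 12 largest each way (10 for stages; 5 by unadjusted p where none passed); up to 4 called members of each list were added, or 2 values. Positions are from GENCODE M21 (GRCm38), which matched 15900 symbols. Alternatives changed the rule, pseudocount, averaging, scaling, filter, comparison cells and captures. Some genes are not reported here.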

Additional observations from a re-analysis of the deposited data

Results flagged for a closer look

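Among 68 groups of 6 captures examined, 1 had a capture whose gap to the nearest other, as a share of the whole range, was above Dixon's 95% critical value. Chance alone gives about 1 in 20 such groups. For Mt3, the difference of Sertoli cells minus other cells in log2(mean RPKM + 1) was 2.37 in the second E12.5 capture and 5.01 to 6.53 in the rest. The Mt3 level in Sertoli cells there was 66.4 RPKM, within the range of the others, and its other cells held 12 RPKM.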

How the results depend on the processing

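Of the comparison of Sertoli with other cells (830 genes), 1700 genes passed with the mean of log2 values, 426 with 2 rule genes required (254 higher and 172 lower), 496 with matched other cells (chosen after seeing the data), 266 with the 10 M read captures alone and 299 with no filter. Leaving out 1 capture gave 384 to 714. Other settings gave 676 to 950, with 311 higher and 639 lower when mixed cells were left out. Without the replicate block by capture 821 passed, 713 of them among the 830. The share of calls that were higher moved from 43.1% to 68.4% with the mean of log2 values, 59.6% with 2 rule genes, 59.1% with matched cells and 32.7% without mixed cells, and to 53.4% without the second E13.5 capture.

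Between E12.5 and E16.5, where 7 passed, 2 passed at a pseudocount of 0.1, 33 with the mean of log2 values (24 higher and 9 lower), 4 with median-ratio scaling, 4 with 4 rule genes required, 3 with the rule at 10 RPKM, 1, another gene, without mixed cells, and 0 with the 10 M read captures alone (chosen after seeing the data), with no filter, or with no trend and robust terms. Leaving out 1 capture gave 0 to 79, the lone capture of a stage being assumed to vary like the others; 79 passed without the second and 17 without the first E12.5 capture. For E13.5 against E12.5 (0) leaving out 1 capture gave 0 to 3. For E16.5 against E13.5 (0) the mean of log2 values gave 6 and 2 required rule genes gave 1. The difference of changes stayed at 0 calls in every setting run. The share of Sertoli cells, as a mean over the 6 captures, stayed between 30.1% and 43%. Single captures under the main rule ran from 16.7% to 61.3%. The difference in detected genes ranged from 563.1 to 838.8 when 1 capture was left out, with an exact p of 0.0625, the smallest that 5 captures allow, and was 598.8 between means.

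Of single genes, Cyp11a1 between classes turned to 0.40 against interstitial cells. Between E12.5 and E16.5, Tcf21 turned to -1.36 with the mean of log2 values and ranged from -1.86 to 4.81 with 1 capture left out, Dusp1 from -0.0114 to 5.77, and Lamc1 turned to 0.42 with 4 rule genes required. The cause was not tested. Fshr (4 settings), Jam2 (2), Dusp1 and Tcf21 (1 each) passed between E12.5 and E16.5 only in alternatives, as did Asns between E12.5 and E13.5 and Alpl, Hmga2, Hsd17b1 and Hsd3b1 between E13.5 and E16.5, in 1 each. Of the named class differences, Tubb6 and Mgp were lost with 2 rule genes required and Tubb6, Dcn and Mfap4 with no filter. Over 22 alternatives the class call was lost in 14 for Hk2 and Nid2, 12 for Rdh10 and 11 for Krt8 and Cyp17a1. For Cyp11a1 it was lost in 12 beside the reversal above. It was lost in 9 for Egr1 and Crabp2, 7 for Cdkn1c and Lgr5, and 5 for Hsd17b1, Hsd17b3, Eno1, Dhrs3 and Dsp. It was lost in 4 for Gli2 and Fgfr1 and 3 for Gpr37, Cgn, Aldoa and Zfp36. No pairing between stages was possible because capture numbers mark no shared embryos between stages. RPKM keep no read counts, so counting error of a cell's values could not be given, and E12.5 Sertoli cell means rest on 5 and 7 cells.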
